A study of Mus musculus with 12 samples.

Results

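The neuronal cytoskeleton and differentiation genes described here are *Mapt*, *Stmn1*, *Pak3*, *Mapk10*, *Mapk8ip1*, *Mapk8ip2*, *Reln*, *Tnr*, *Tspan7* and *Runx1t1*. They were taken by their symbols, as a set chosen with earlier results of these data known. All 10 were found among the 770 genes of the murine PanCancer Pathways panel. On this nCounter panel, color-coded probes bind RNA molecules, which are then counted without amplification. Each gene was compared over 4 control eyes, 5 *RBS* lesions and 3 Shh-medulloblastomas (Shh-MBs), with 1 eye, lesion or tumor per animal. The control eyes came from embryos at E18.5 with the genotype Ctnnb1(ex3)Fl/+SmoM2Fl/+, that is, with a floxed exon of *Ctnnb1* and a floxed *SmoM2* allele but no Cre driver. The *RBS* lesions were also taken at E18.5. They were Rax-creERT2::Ctnnb1(ex3)Fl/+SmoM2Fl/+, in which a tamoxifen-inducible Cre under the *Rax* promoter, active in retinal precursors, switches on stabilized beta-catenin (Wnt) and active Smoothened (Shh) after tamoxifen at E8.5. The labels name tamoxifen for this group only, and they do not say whether the mothers of the control eyes received it. The Shh-MBs were hindbrain tumors of 14-day-old mice with the genotype hGFAP-cre::SmoM2Fl/+, where Cre under the human *GFAP* promoter, active in neural precursors, switches on *SmoM2* alone.

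Differentiating neurons build axons and dendrites from microtubules and actin. *Mapt* and *Stmn1* encode microtubule-binding proteins, tau and stathmin, of which the former stabilizes microtubules and the latter destabilizes them, and *Pak3* encodes a Rac-activated kinase of dendritic spines. *Mapk10* encodes JNK3, the c-Jun N-terminal kinase found mainly in the nervous system, and *Mapk8ip1* and *Mapk8ip2* encode JIP1 and JIP2, scaffolds that hold the JNK module and link cargo to kinesin motors. *Reln* (reelin) and *Tnr* (tenascin-R) are extracellular proteins that guide neuron positioning and coat perineuronal nets. *Tspan7* is a tetraspanin of neuronal membranes, and *Runx1t1* encodes the corepressor ETO.

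Values are a normalized signal on a linear scale, and differences are given as log2 of the signal plus 1, so that they understate the change of low genes. Depth lay between 590200 and 716684 counts above background in the control eyes, between 335392 and 637795 in the *RBS* lesions and between 541092 and 707210 in the Shh-MBs. The panel held none of the listed markers of retina, lens or glia, so the eye label could not be checked against them. Of the granule lineage markers of the cerebellum it held *Zic2*, with a signal of 924 to 1142 in the Shh-MBs and at most 385 in any eye or lesion. Because samples were whole tissue, fewer cells of a type and less RNA per cell cannot be told apart. No member was at the floor of the values in any sample. The lowest signals were those of *Tnr*.

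RefSeq windows around the gene start (GRCm38.p6) were given for 6 of the 10 genes. The stretch before the annotated start is shown for the 4 genes where it was at least 200 bases, since the Wnt and Shh pathways switched on in the lesions act on promoters through Tcf/Lef and Gli factors. Capitals mark matches, on either strand, to CTTTGA of Tcf/Lef factors, GACCACCC of Gli factors, TCAGCACC of the left part of the REST site or the E-box CAGCTG, which is its own reverse complement, and no match overlapped another.
Tnr, chr1:159523519-159523728, plus strand: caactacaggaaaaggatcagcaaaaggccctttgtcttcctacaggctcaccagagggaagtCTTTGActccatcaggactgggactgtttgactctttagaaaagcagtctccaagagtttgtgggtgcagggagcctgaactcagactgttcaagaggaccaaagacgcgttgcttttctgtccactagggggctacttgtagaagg
Reln, chr5:22344706-22344955, minus strand: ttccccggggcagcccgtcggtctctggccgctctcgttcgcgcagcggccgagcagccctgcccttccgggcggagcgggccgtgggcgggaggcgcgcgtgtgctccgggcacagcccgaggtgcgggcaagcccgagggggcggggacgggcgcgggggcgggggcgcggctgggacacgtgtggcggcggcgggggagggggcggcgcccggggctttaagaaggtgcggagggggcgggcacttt
Mapk8ip2, chr15:89453661-89453910, plus strand: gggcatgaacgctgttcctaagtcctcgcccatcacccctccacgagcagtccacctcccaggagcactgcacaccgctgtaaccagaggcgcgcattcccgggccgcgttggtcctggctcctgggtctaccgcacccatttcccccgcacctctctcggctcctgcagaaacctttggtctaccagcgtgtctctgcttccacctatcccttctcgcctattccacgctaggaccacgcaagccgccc
Tspan7, chrX:10484866-10485115, plus strand: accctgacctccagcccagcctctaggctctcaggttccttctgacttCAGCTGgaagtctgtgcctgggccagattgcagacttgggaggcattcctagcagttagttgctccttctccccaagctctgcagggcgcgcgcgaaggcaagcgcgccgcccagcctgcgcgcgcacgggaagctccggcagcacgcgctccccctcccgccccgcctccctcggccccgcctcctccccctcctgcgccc
The *Tnr* window held 1 CTTTGA, and the *Tspan7* window held 1 CAGCTG. Among the windows not shown, 1 of *Mapk10* held CTTTGA and 1 of *Pak3* held CAGCTG. Among all 32851 windows of the table, 13.8% held CTTTGA, 13% CAGCTG, 1.32% TCAGCACC and 0.703% GACCACCC. A match describes letters, and a window without one says only that these letters are not in it.

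The first comparison asked how the lesions differed from eyes of the same age. Of the 10 genes, 8 were higher and 1 was lower in the *RBS* lesions (limma, Benjamini-Hochberg adjusted over 770 genes, threshold 0.05), where 33.0% of all panel genes were higher, 18.2% lower and 51.2% changed in either direction. *Mapk10* was the most different with 4.68-fold, followed by *Mapt* with 3.25-fold and *Tspan7* with 3.12-fold. *Reln* was lower, and *Runx1t1* did not pass the test. The same 8 and 1 did not overlap between the groups, as held for 27.5% (higher), 15.8% (lower) and 43.4% (either) of the panel. The median log2 difference of the 10 genes was 1.02, against 0.17 over the panel. The set was chosen with earlier results of these data known, so these shares and medians describe it and are not a test.

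**Figure D1:**
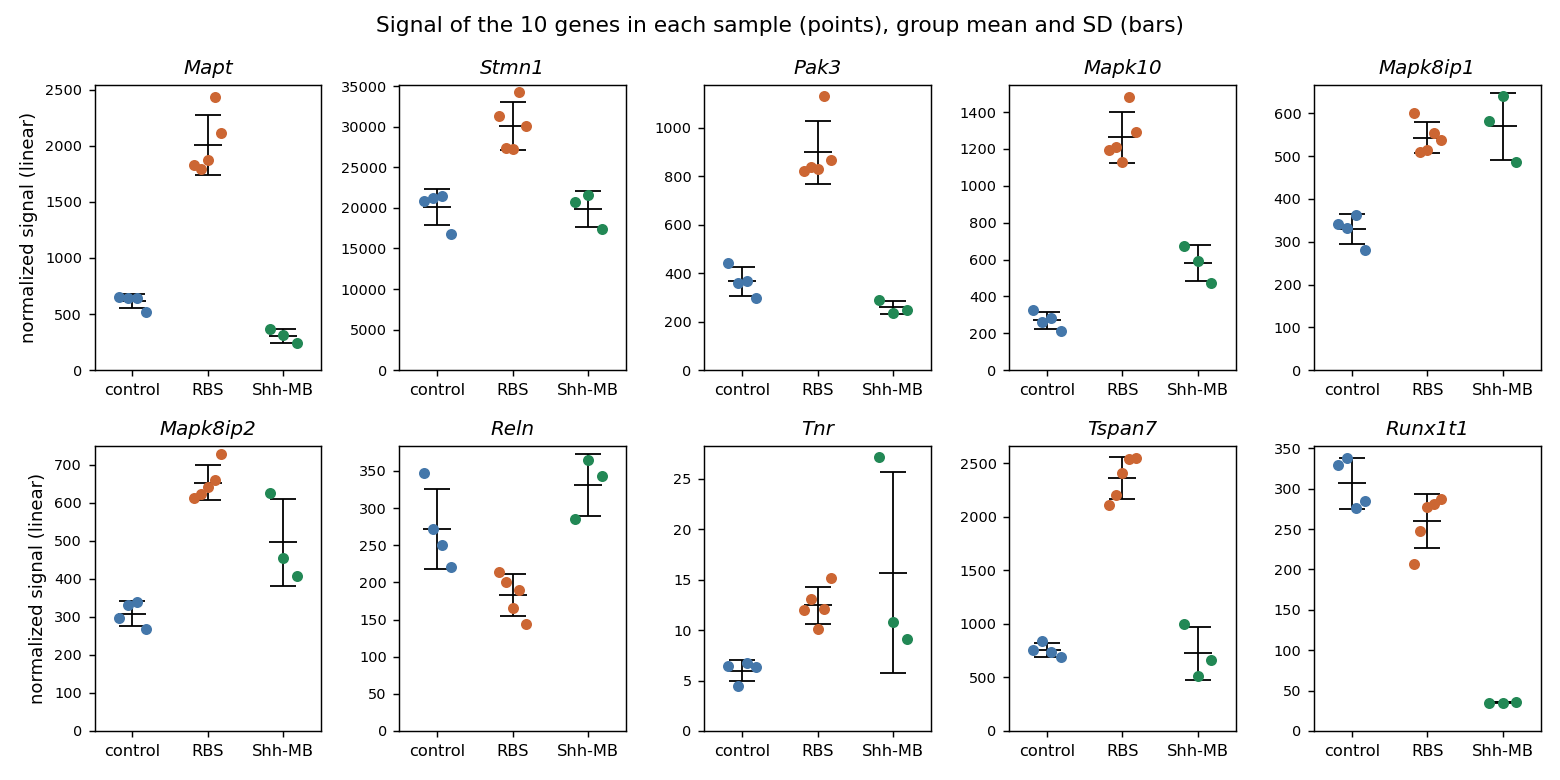
Normalized signal (linear, from 0) of the 10 genes, with a point for each of 4 control eyes, 5 *RBS* lesions and 3 Shh-MBs and with bars for the group mean and SD. For *Mapt*, *Stmn1*, *Pak3*, *Mapk10* and *Tspan7* all *RBS* lesions lie above all other samples in the deposited signal, although the *Stmn1* mean falls below that of the Shh-MBs once samples are centred on their median, and *Runx1t1* lies between 35.0 and 36.3 in the Shh-MBs.

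Among the microtubule genes, *Mapt* (tau) had a signal of 653, 641, 644 and 522 in control eyes 1 to 4. In *RBS* lesions 1 to 5 it was 1826, 1789, 1873, 2431 and 2111. The Shh-MBs gave 368, 309.7 and 239.8. No group overlapped another, and the lesions were highest and the tumors lowest. The log2 difference of *RBS* lesions from control eyes was 1.70 ± 0.12 (SE, limma adjusted p = 9.12e-06). Against Shh-MBs it was 2.72 ± 0.17 (adjusted p = 5.87e-06). Shh-MBs were 1.02 ± 0.17 below control eyes (adjusted p = 0.00317), and with samples centred on their median this value was -0.36 and no longer passed.

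*Stmn1* (stathmin) reached 20912, 21237, 21488 and 16781 in control eyes. Its signal in *RBS* lesions was 31382, 27398, 27230, 34280 and 30144. In Shh-MBs it was 20783, 21566 and 17340. All lesions lay above all other samples, while control eyes and Shh-MBs overlapped over their whole range. *RBS* lesions were above control eyes by 0.58 ± 0.11 (log2, SE, adjusted p = 0.00215), and this stood under every scaling tried. They were 1.51-fold above Shh-MBs (log2 0.60 ± 0.12, adjusted p = 0.00314), but median centring turned this to -0.25 (adjusted p = 0.161), and a total that left out the 3 most abundant genes gave 0.21 (adjusted p = 0.138). Between Shh-MBs and control eyes the difference was -0.01 with a 95% interval from -0.34 to 0.31 and with median centring 0.65 (adjusted p = 0.0185), so its direction depends on the scaling.

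*Pak3* had 443, 360.2, 368 and 296 units of signal in control eyes. The *RBS* lesions gave 823, 839.6, 829.8, 1132 and 868. Shh-MBs were at 290.3, 238 and 250.01. *RBS* lesions were 2.45-fold above control eyes (log2 1.29 ± 0.14, SE, adjusted p = 0.000102) and 3.44-fold above Shh-MBs (log2 1.78 ± 0.14, adjusted p = 1.86e-05), without overlap in either case, and median centring reduced the latter to 0.94. *Pak3* is X-linked, and signal of the Y-linked gene *Uty* above 100 was seen in 1 control eye, 2 *RBS* lesions and all 3 Shh-MBs. With a term for it the difference from control eyes was 1.31 and that from Shh-MBs 1.67. The order of Shh-MBs and control eyes was not settled, since the log2 difference was -0.49 ± 0.16 (adjusted p = 0.0471) but 0.18 after median centring, and the call was also lost with the *Uty* term (-0.51, adjusted p = 0.247) and without control eye 1, 2 or 3 or Shh-MB 2 or 3 (adjusted p = 0.0854 to 0.149).

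*Pak7* encodes another member of the kinase family. Its mean signal was 114 ± 25.7 (SD, n = 4) in control eyes, 241 ± 20.3 (n = 5) in *RBS* lesions and 164 ± 17.5 (n = 3) in Shh-MBs. The log2 ratio of *Pak3* to *Pak7* within a sample, which a factor per sample hardly changes, was 1.69 ± 0.22 (SD) in control eyes, 1.89 ± 0.22 in *RBS* lesions and 0.66 ± 0.29 in Shh-MBs. *RBS* lesions and Shh-MBs did not overlap in this ratio (difference 1.23, exact permutation p = 0.0179, adjusted p = 0.0514). Adjustment ran over 18 tests, of 6 ratios in 3 group pairs. The smallest exact p the group sizes allow is 0.00794, 0.0179 and 0.0286, and none of the 18 fell under 0.05 after adjustment. *RBS* lesions and control eyes overlapped in the ratio, with a difference of 0.20 ± 0.15 (SE, exact permutation p = 0.238).

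In the JNK module, *Mapk10* (JNK3) had a signal of 324, 259.9, 285 and 214 in control eyes. In *RBS* lesions it was 1195, 1212, 1130.4, 1484 and 1293. The Shh-MBs had 672, 593 and 476. The lesions lay above the tumors and the tumors above the control eyes, without overlap. The log2 difference from control eyes was 2.23 ± 0.14 in *RBS* lesions (SE, adjusted p = 4.01e-06) and 1.10 ± 0.19 in Shh-MBs (adjusted p = 0.00324, but 0.0639 with the *Uty* term). By this difference in the lesions it ranked 18 from the highest among 770 genes. Lesions were 2.19-fold above Shh-MBs (log2 1.13 ± 0.14, adjusted p = 0.000242), which median centring reduced to 0.28 (adjusted p = 0.117).

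The ubiquitous JNK genes on the panel, *Mapk8* (JNK1) and *Mapk9* (JNK2), gave a reference within each sample. *Mapk8* had a mean signal of 564 ± 52.6 (SD) in control eyes, 959.9 ± 61.9 in *RBS* lesions and 582 ± 24.8 in Shh-MBs. For *Mapk9* the means were 406 ± 52.9, 619 ± 15.4 and 302 ± 45.4. The log2 ratio of *Mapk10* to *Mapk8* was -1.07 ± 0.24 (SD) in control eyes, 0.39 ± 0.14 in *RBS* lesions and -0.02 ± 0.29 in Shh-MBs. *RBS* lesions exceeded control eyes by 1.46 ± 0.13 (SE, exact permutation p = 0.00794, adjusted p = 0.0514). Shh-MBs exceeded them by 1.05 ± 0.21 (exact permutation p = 0.0286, adjusted p = 0.0514). Against *Mapk9* the same differences were 1.61 ± 0.21 and 1.53 ± 0.22, again without overlap and again at the smallest p each design allows. Lesions and tumors overlapped in the ratio to *Mapk8* (difference 0.41 ± 0.18, exact permutation p = 0.0357, adjusted p = 0.0536). In the ratio to *Mapk9* they differed by 0.09 ± 0.09 (exact permutation p = 0.393).

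**Figure D2:**
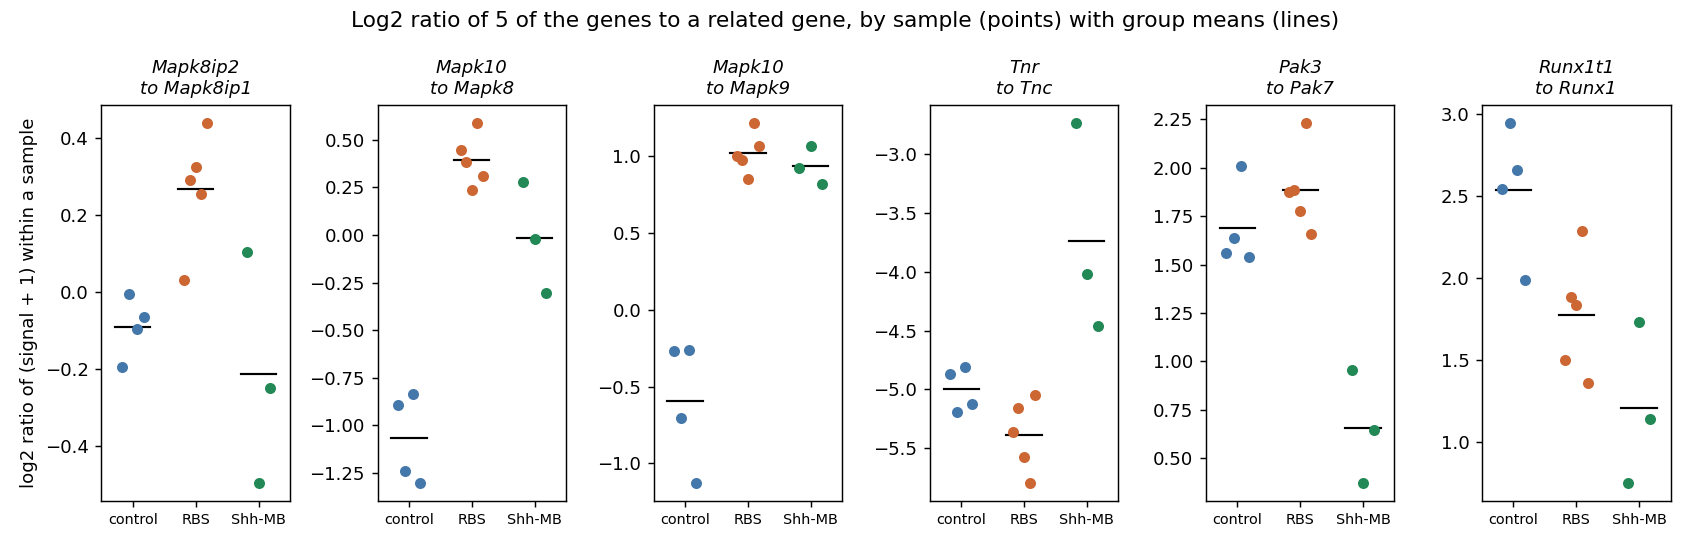
Log2 ratio of the signal plus 1 of 2 genes within a sample, for 6 ratios, with points for the 4 control eyes, 5 *RBS* lesions and 3 Shh-MBs and lines for group means. The ratios of *Mapk10* to *Mapk8* and to *Mapk9* lie higher in all *RBS* lesions and all Shh-MBs than in every control eye, and no group difference passed an adjusted p of 0.05 over 18 tests.

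The scaffold gene *Mapk8ip1* (JIP1) had a signal of 341, 333, 363 and 280.3 in control eyes. *RBS* lesions had 599.5, 510.1, 513, 553 and 536. Shh-MBs had 583, 640.3 and 486. Lesions and tumors lay above all control eyes and overlapped each other. The log2 difference from control eyes was 0.72 ± 0.10 in *RBS* lesions (SE, adjusted p = 0.000326) and 0.79 ± 0.14 in Shh-MBs (adjusted p = 0.00439, but 0.094 with the *Uty* term). *RBS* lesions and Shh-MBs differed by -0.06 with a 95% interval from -0.34 to 0.21, and centring on the median moved this to -0.91 (adjusted p = 0.000726).

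For *Mapk8ip2* (JIP2) the control eyes gave 297, 332, 339 and 268. In the lesions the signal was 613, 624, 643, 661 and 728. The tumors had 626, 454 and 409. *RBS* lesions were 2.12-fold above control eyes (log2 1.08 ± 0.10, SE, adjusted p = 3.44e-05), without overlap. Shh-MBs were 1.58-fold above them (log2 0.66 ± 0.18, adjusted p = 0.0230), and this call was lost without control eye 1 or 4 or Shh-MB 2 (adjusted p = 0.0502 to 0.0572). The differences in these fits were 0.65, 0.60 and 0.72. With the *Uty* term the call was lost as well (0.52, adjusted p = 0.262). *RBS* lesions and Shh-MBs overlapped through Shh-MB 1, and their difference of 0.42 ± 0.15 (adjusted p = 0.0411) was lost without *RBS* lesion 2, 3, 4 or 5 or Shh-MB 2 or 3 (adjusted p = 0.0643 to 0.152) and turned to -0.43 (adjusted p = 0.0191) with median centring.

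The log2 ratio of *Mapk8ip2* to *Mapk8ip1* was -0.09 ± 0.08 (SD) in control eyes, 0.27 ± 0.15 in *RBS* lesions and -0.21 ± 0.30 in Shh-MBs. All lesions lay above all control eyes (difference 0.36 ± 0.08, SE, exact permutation p = 0.0159, adjusted p = 0.0514). Lesions and tumors overlapped (difference 0.48 ± 0.19, exact permutation p = 0.0357, adjusted p = 0.0536). Shh-MBs and control eyes differed by less than the spread between samples (-0.12 ± 0.18, exact permutation p = 0.514).

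Among the extracellular proteins, *Reln* was the only member lower in *RBS* lesions than in both other groups. Its signal was 347, 272, 249.96 and 221 in control eyes. In *RBS* lesions it was 214, 201, 165, 189 and 144. In Shh-MBs it was 285, 365 and 343. The highest lesion lay just under the lowest control eye. *RBS* lesions were 0.57 ± 0.16 below control eyes (log2, SE, adjusted p = 0.0163) and 0.86 ± 0.16 below Shh-MBs (adjusted p = 0.00166), and both differences kept their sign and passed under each scaling, with the latter at -1.71 after median centring. Control eyes and Shh-MBs overlapped. The Shh-MBs were 0.29 above control eyes, with a 95% interval from -0.14 to 0.72, and with median centring 0.96 above them (adjusted p = 0.00978).

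*Tnr* was near the detection limit. Its signal was 6.40, 4.42, 6.72 and 6.34 in control eyes, which rests on 4.36 to 6.33 counts above background. In *RBS* lesions it was 11.95, 13.1, 10.1, 12.1 and 15.1, from 7.28 to 16.5 counts. The Shh-MBs had 27.1, 10.8 and 9.12, so that Shh-MB 1 stood apart. *RBS* lesions were 0.95 ± 0.14 above control eyes (log2, SE, adjusted p = 0.000522) without overlap, but with every value under 20 set to 20 nothing of this difference is left. Shh-MBs were 1.12 ± 0.36 above control eyes (adjusted p = 0.0480), a call lost in 5 of 7 fits without a sample (adjusted p = 0.0668 to 0.108). This difference was 0.67 without Shh-MB 1, and 0.15 with every value under 20 set to 20 (adjusted p = 0.429). *RBS* lesions and Shh-MBs differed by -0.17 with a 95% interval from -0.91 to 0.58. Without Shh-MB 1 the sign turned (0.29), and with median centring the value was -1.01 (adjusted p = 0.0102).

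*Tnc*, the tenascin of embryonic matrix, had a mean signal of 221 ± 24.1 (SD) in control eyes, 564 ± 91.4 in *RBS* lesions and 199.6 ± 19.5 in Shh-MBs. The log2 ratio of *Tnr* to *Tnc* was -5.00 ± 0.19 in control eyes, -5.39 ± 0.30 in *RBS* lesions and -3.74 ± 0.90 in Shh-MBs. The Shh-MBs lay above all *RBS* lesions (exact permutation p = 0.0179, adjusted p = 0.0514) and all control eyes (difference 1.26, exact permutation p = 0.0286, adjusted p = 0.0514). The latter difference was 0.76 without Shh-MB 1 and 0.29 with values under 20 set to 20 (adjusted p = 0.24). Lesions and control eyes overlapped (difference -0.39 ± 0.16, SE, exact permutation p = 0.0714), and this difference was -0.66 with a pseudocount of 5 and -1.35 with the floor at 20 (adjusted p = 0.0468 and 0.0459). With that floor *Tnr* is 20 in every eye and lesion, so the -1.35 is the difference of *Tnc* alone. The pseudocount of 5 lowered the difference of *Tnr* itself from 0.95 to 0.67.

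The membrane gene *Tspan7* had a signal of 758, 838, 734 and 691 in control eyes. In *RBS* lesions it was 2111, 2205, 2412, 2535 and 2550.5. In Shh-MBs it was 997, 518 and 663. All lesions lay above all other samples, and the tumors spread to both sides of the control eyes. *RBS* lesions were 3.12-fold above control eyes (log2 1.64 ± 0.10, SE, adjusted p = 3.48e-06) and 3.37-fold above Shh-MBs (log2 1.75 ± 0.20, adjusted p = 0.000142), the latter 0.90 with median centring. *Tspan7* is X-linked too, and with the *Uty* term these differences were 1.66 and 1.69. Shh-MBs and control eyes differed by -0.11 with a 95% interval from -0.64 to 0.43, which turned to 0.56 (adjusted p = 0.0328) with median centring.

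*Runx1t1* followed another order. Its signal was 329, 338, 275 and 284 in control eyes. The lesions had 207, 248, 277, 281 and 287. The 3 Shh-MBs gave 35.0, 35.2 and 36.3, closer together than any other member in any group. The lesions overlapped control eyes, with a log2 difference of -0.24 and a 95% interval from -0.52 to 0.04 (adjusted p = 0.136). After median centring this was -0.42 (adjusted p = 0.0289) and after quantile normalization also -0.42 (adjusted p = 0.0258). Shh-MBs were lower by 8.40-fold than control eyes (log2 -3.07 ± 0.11, SE, adjusted p = 5.06e-06) and by 7.11-fold than *RBS* lesions (adjusted p = 1.83e-06), which all scalings kept.

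*Runx1*, which encodes the transcription factor to whose gene *RUNX1T1* is joined in a leukemia translocation, was also low in Shh-MBs, with a mean of 15.4 ± 5.28 (SD) against 53.1 ± 13.3 in control eyes and 76.8 ± 20.7 in *RBS* lesions. The log2 ratio of *Runx1t1* to *Runx1* was 2.53 ± 0.40 in control eyes, 1.77 ± 0.36 in *RBS* lesions and 1.21 ± 0.49 in Shh-MBs. Shh-MBs lay below all control eyes (difference -1.33, exact permutation p = 0.0286, adjusted p = 0.0514). Lesions overlapped both other groups.

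The second comparison set lesions with Wnt and Shh activation against tumors with Shh activation alone, in which tissue, age and genotype cannot be told apart. Of the 10 genes, 7 were higher and 1 lower in *RBS* lesions than in Shh-MBs, where 48.1% of panel genes were higher, 12.7% lower and 60.8% changed in either direction. Without overlap were 6 higher members and 1 lower, against 47.0%, 12.9% and 59.9% of the panel. With median centring, 4 were higher (*Mapt*, *Pak3*, *Tspan7* and *Runx1t1*) and 4 lower (*Reln*, *Tnr*, *Mapk8ip1* and *Mapk8ip2*), and of the 770 panel genes 181 were higher and 319 lower. Median log2 differences were 0.86 for the members and 0.53 for the panel. In the third pair, Shh-MBs against control eyes, 4 members were higher and 3 lower, where 9.61% of panel genes were higher, 31.4% lower and 41.0% changed in either direction. The same 4 and 3 did not overlap, against 12.2%, 36.0% and 48.2% of the panel. Without control eye 1 or without Shh-MB 2 the 7 calls were 4. With a term for *Uty*, which exceeded 100 in all 3 Shh-MBs and 1 control eye, 0 members were called higher and 2 lower. The differences of the 4 higher members were then 1.01 (*Mapk10*), 0.96 (*Tnr*), 0.64 (*Mapk8ip1*) and 0.52 (*Mapk8ip2*), so that the calls were lost at values close to those without the term. The medians in this pair were 0.14 for the members and -0.22 for the panel. Centring on the median turned the directions of *Stmn1*, *Pak3* and *Tspan7* to higher in Shh-MBs, and 7 members were then called higher and 1 lower, with 311 panel genes higher and 139 lower. It also raised the differences of *Mapk10* to 1.77, *Tnr* to 1.79, *Mapk8ip1* to 1.45 and *Mapk8ip2* to 1.33. That setting shifted the panel's median difference from 0.17 to -0.01 for lesions against control eyes, from 0.53 to -0.32 for lesions against Shh-MBs and from -0.22 to 0.44 for Shh-MBs against control eyes, and the *RBS* lesions kept all 9 calls against control eyes under it. The 3 pairs share samples and are not independent of each other.

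**Figure D3:**
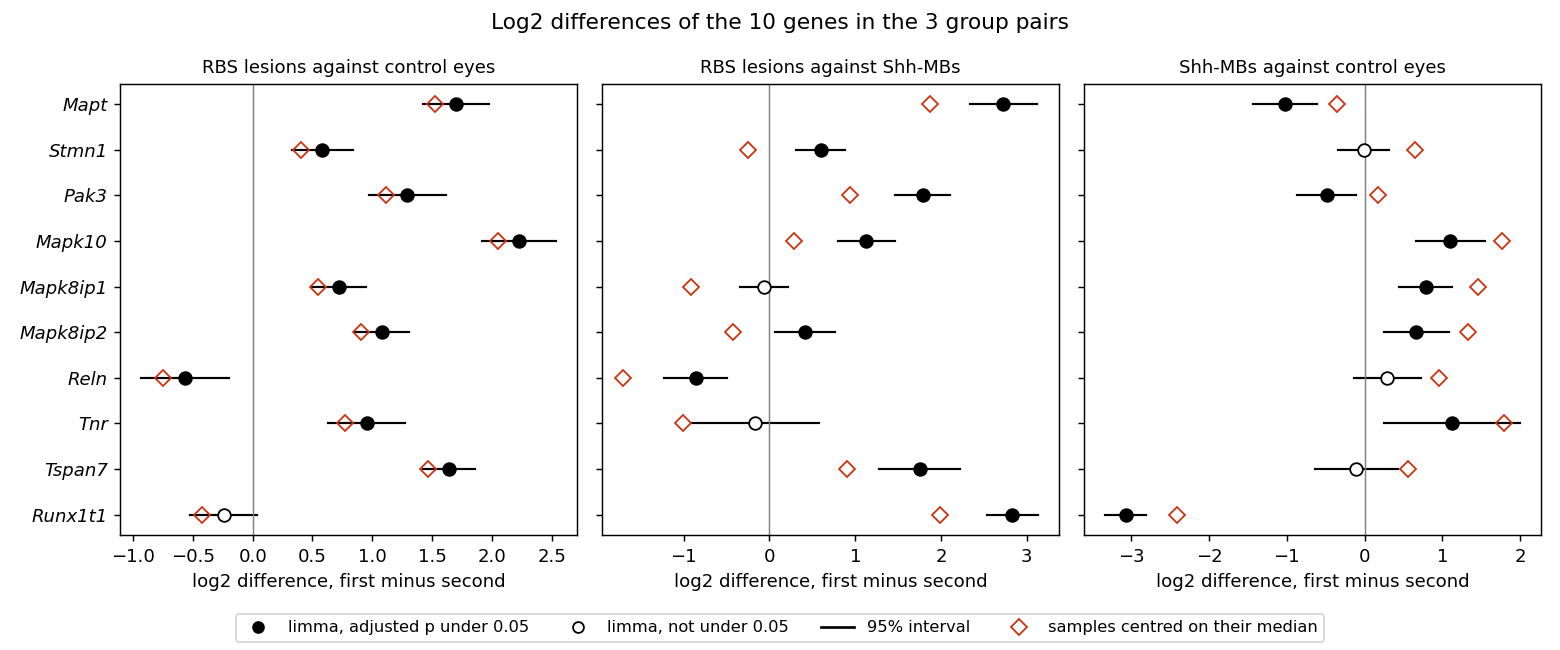
Log2 differences of the 10 genes in the 3 group pairs, as filled points where limma gave an adjusted p under 0.05 and open points otherwise, with 95% intervals and, as red diamonds, the value after centring each sample on its median. Against control eyes the diamonds of *RBS* lesions stay on the side of the points for all 10 genes, whereas *Stmn1* and *Mapk8ip2* change side against Shh-MBs and *Stmn1*, *Pak3* and *Tspan7* in Shh-MBs against control eyes.

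Within groups the highest and lowest values were counted by sample. Control eye 4 had the lowest value of its group for 8 of the 10 genes and for 26.1% of the panel, with a median deviation from the group mean of -0.23 on the log2 scale, where the panel's median deviation was -0.01. *RBS* lesion 4 and *RBS* lesion 5 each held the highest value for 4 genes, and for 28.8% and 17.8% of the panel. Shh-MB 1 was highest for 6 genes and 51.6% of the panel, and Shh-MB 3 lowest for 6 genes and 38.8% of the panel. The summed signal of 15 other neuronal genes was 2751 in Shh-MB 1 and 1529.9 and 1598 in the other Shh-MBs, a spread whose part in the members' values was not tested.

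Other genes of the same processes were counted by list, and these lists were also chosen with earlier results of these data known. Of 15 other neuronal genes of the panel, 12 were higher and 2 lower in the *RBS* lesions, where 33.0% of the panel was higher and 18.2% lower, with a median log2 difference of 1.72 against 0.17 over the panel. *Cacna1e*, a voltage-gated calcium channel, rose from a mean signal of 5.39 ± 1.57 (SD) in control eyes to 125 ± 22.2 in *RBS* lesions, and *Baiap3*, of the Munc13 family of vesicle release proteins, from 1.79 ± 1.51, at or near the floor, to 60.7 ± 10.3 (adjusted p = 1.76e-06 and 4.01e-06). The neurotrophin *Bdnf* fell from 49.9 ± 4.06 to 34.0 ± 5.42 (adjusted p = 0.00630) and *Fgf12*, which modulates sodium channels, from 417 ± 44.4 to 309 ± 46.3 (adjusted p = 0.0208). Of 10 other genes of the JNK module 7 were higher and 0 lower, and 4 of the 10 were higher without overlap, as held for 27.5% of the panel. Among the 7 were *Dusp8*, a phosphatase of JNK and p38 kinases (log2 1.38 ± 0.16, SE, adjusted p = 0.000144), and the axonal kinase *Map3k12* (0.89 ± 0.26, adjusted p = 0.0177). *Map3k12* overlapped between the groups.

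Of 8 tenascin, reelin and integrin genes 3 were higher and 1 lower, near the shares of the panel. *Tnc* and the integrin *Itga8* rose (log2 1.34 ± 0.13, SE, and 1.25 ± 0.41), the latter with overlap between the groups. *Tnn*, another tenascin, fell by 2.29 ± 0.53 (adjusted p = 0.00592). Its mean signal was 37.4 ± 19.7 (SD) in control eyes and 7.59 ± 5.73 in *RBS* lesions, the latter near the detection limit. Of 4 Runx partners 1 was called, where 51.2% of the panel changed in either direction and 18.2% was lower. It was the histone deacetylase *Hdac1*, lower by 0.29 ± 0.10 (adjusted p = 0.0339) with overlap between the groups.

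Lists of other cell types were counted in the same comparison, in which 33.0% of panel genes were higher and 18.2% lower. Of 8 genes of replicating cells, 7 were below control eyes in the *RBS* lesions, and their summed signal was 5143 to 6289.6 against 11190 to 14055, with 12987 to 14663 in Shh-MBs. Of 7 mesenchyme genes 2 were lower, with overlapping sums of 19843 to 36410 in the lesions and 25546 to 57829 in the control eyes, and with 1476 to 2099 in Shh-MBs. Of 6 blood and immune genes 2 were higher and 0 lower in the lesions, and of 2 vessel genes 1 was lower. Their part in the members' differences was not tested. Of 3 Shh response genes 1 was higher and 1 lower in *RBS* lesions, with sums of 994 to 1307 against 375 to 492 in control eyes. Their log2 differences ran from -0.67 to 2.21 with a median of 0.26, so the higher sums do not hold for each gene.

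**Figure D4:**
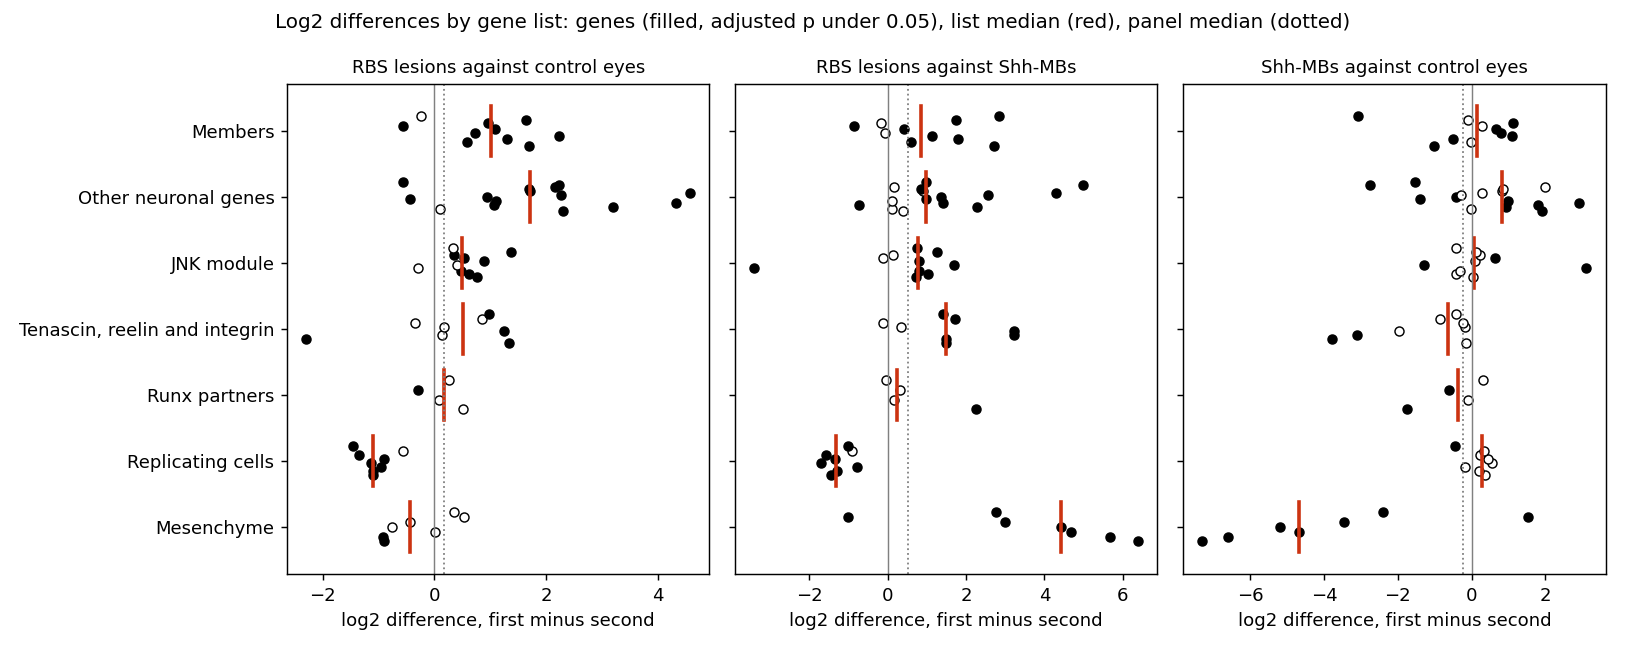
Log2 differences in the 3 group pairs for the 10 members and 6 lists of other panel genes, with filled points for an adjusted p under 0.05, red bars for the list median and a dotted line for the panel median. In *RBS* lesions against control eyes the medians of the members (1.02) and of the other neuronal genes (1.72) lie right of the panel median (0.17), and that of the replicating cell genes (-1.10) lies left of it.

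The panel gene with the most similar pattern was found for each member by the distance between the log2 differences of *RBS* lesions and of Shh-MBs from control eyes, over 3 groups and 569 genes, as a description. It was *Dusp4* for *Mapt* (distance 0.37), *Plcb4* for *Stmn1* (0.05), *Spp1* for *Pak3* (0.11), *Ppp2r2b* for *Mapk10* (0.31) and *Phf6* for *Mapk8ip1* (0.12). For *Mapk8ip2* it was *Csf1r* (0.05), for *Reln* *Skp2* (0.06), for *Tnr* *Egfr* (0.16), for *Tspan7* *Gng7* (0.06) and for *Runx1t1* *Id1* (0.14). No member was nearest to another member. The closest pair of members, *Mapk8ip1* and *Mapk8ip2*, was 0.38 apart, and 8 genes were nearer to *Mapk8ip1* than that.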

How the data were processed

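RNA of fresh frozen tissue was measured on the nCounter Mouse PanCancer Pathways panel in 12 samples, grouped by the genotype in their labels. The authors normalized the data in nSolver with its Advanced Analysis module, and the deposited values are this normalized signal, on a linear scale. Low values lie on even steps above a floor, so a background had been subtracted and each sample scaled by 1 factor; neither setting is given in the sources used here. The total signal divided by the step gave the depth. The deposited series table had 0 columns that could not be mapped to a sample. No 2 of the 12 samples held identical values.

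Log2 of the signal plus 1 was compared for all 770 genes, without a filter, in each pair of groups (limma 3.58.1 in R 4.3.3, two-sided, Benjamini-Hochberg, threshold 0.05). Ratios within a sample were compared by exact permutation, two-sided (scipy 1.17.1 in Python 3.11.15), and figures were drawn with matplotlib 3.10.9. Tested on simulated data of 770 genes with 200 changed 2-fold, the fit recovered 81.5% for lesions against control eyes, 69.5% for lesions against Shh-MBs and 63.5% for Shh-MBs against control eyes. Alternatives were a pseudocount of 5, values under 20 set to 20, a filter at a mean of log2 20, median centring, quantile normalization, a total that leaves out the 3 most abundant genes, 1 fit over all 12 samples, trend and robust settings, the methods' Welch test (run without its permutation step), exact permutation, a replicate block, a term for *Uty* above 100 and leaving out each sample. The results of 1 gene list are not reported here. All members were named, and of each pathway list (neuronal, JNK, matrix and Runx) up to 2 rises and 2 falls past the threshold in lesions against control eyes. The members, lists and tests were chosen with earlier results of these data known. Samples were separate animals.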

Additional observations from a re-analysis of the deposited data

Results flagged for a closer look

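Dixon's test on the log2 values in the control eyes and in the *RBS* lesions singled out 4 of 20 groups, where chance gives about 1 in 20. In control eyes, replicate 4 stood below the others for *Mapt* (signal 522) and for *Stmn1* (16781), and replicate 2 for *Tnr* (4.42, on 4.36 counts above background). In *RBS* lesions, replicate 4 stood above the others for *Pak3* (1132). Each *RBS* difference from control eyes of these genes kept its call without the sample named. The Shh-MBs were too few for this test.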

How the results depend on the processing

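In *RBS* lesions against control eyes, the 9 called members passed in every setting but the methods' Welch test with step-down Bonferroni adjustment (3 members and 72 panel genes) and values under 20 set to 20, where *Tnr* was lost, and none turned its direction. *Runx1t1* passed as well with median centring and quantile normalization, which made 10. The filter on low means left out *Tnr*. With that test 80 genes and 2 members passed for *RBS* lesions against Shh-MBs, and 36 genes and 1 member for Shh-MBs against control eyes. The latter pair was the least stable. Of its 7 members, 3 passed with Benjamini-Hochberg adjustment of the Welch test (and 217 genes of 316), 2 with the *Uty* term (and 182 genes, with members' differences close to those without it) and 4 to 7 without a sample (and 250 to 313 genes). By exact permutation 0 genes and 0 members passed there after adjustment, since p cannot fall under 0.0286, while 313 genes and 6 members had an unadjusted p under 0.05 (limma called 316 and 7).

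Scaling turned directions in both comparisons with Shh-MBs. Centring on the median gave -0.25 for *Stmn1* and -0.43 for *Mapk8ip2* in lesions against Shh-MBs, and 0.65 for *Stmn1*, 0.18 for *Pak3* and 0.56 for *Tspan7* in Shh-MBs against control eyes. Quantile normalization gave -0.094 for *Mapk8ip2* in the former, and 0.18 for *Stmn1* and 0.15 for *Tspan7* in the latter. A total that left out the 3 most abundant genes gave 0.30 and 0.21 for these. Of the genes called in the 3 pairs, 254 of 394, 370 of 468 and 74 of 316 were higher in the first group, and 177 of 354, 181 of 500 and 311 of 450 with centring. Leaving out samples moved *Tnr* from -0.45 to 0.29 and *Mapk8ip1* from -0.17 to 0.026 in lesions against Shh-MBs. In Shh-MBs against control eyes *Stmn1* ran from -0.099 to 0.082 and *Tspan7* from -0.36 to 0.11. None of these was called at either end. The cause was not tested.

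No ratio passed the adjusted threshold in the main analysis (adjusted p = 0.0514 to 0.514), and several did elsewhere. With a pseudocount of 5, those for lesions against control eyes were 0.36 (*Mapk8ip2* to *Mapk8ip1*), 1.45 and 1.60 (*Mapk10* to *Mapk8* and *Mapk9*) and -0.66 (*Tnr* to *Tnc*). For lesions against Shh-MBs they were 0.48 (*Mapk8ip2* to *Mapk8ip1*), 0.41 (*Mapk10* to *Mapk8*), -1.62 (*Tnr* to *Tnc*) and 1.22 (*Pak3* to *Pak7*). For Shh-MBs against control eyes they were 1.04 and 1.51 (*Mapk10* to *Mapk8* and *Mapk9*), 0.96 (*Tnr* to *Tnc*), -1.01 (*Pak3* to *Pak7*) and -1.42 (*Runx1t1* to *Runx1*). With values under 20 set to 20, the same order gave 0.36, 1.46, 1.62 and -1.35, then 0.48, 0.41, -1.64 and 1.23 with 0.97 for *Runx1t1* to *Runx1*, then 1.05, 1.53, -1.03 (*Pak3* to *Pak7*) and -1.74, while *Tnr* to *Tnc* fell to 0.29 (adjusted p = 0.24). Under this setting *Tnr* is 20 in every sample but Shh-MB 1. The -1.35 therefore holds no signal of *Tnr*, and the -1.64 and 0.29 hold it from Shh-MB 1 only. Without *RBS* lesion 1, 3 or 4, 6 ratios each passed, all at an adjusted p of 0.0468. Without a sample, ratios in lesions against control eyes ran from 0.32 to 0.42 (*Mapk8ip2* to *Mapk8ip1*), 1.38 to 1.54 and 1.44 to 1.72 (*Mapk10* to *Mapk8* and *Mapk9*) and -0.94 to -0.62 (*Runx1t1* to *Runx1*). Against Shh-MBs they ran from 0.34 to 0.64, 0.26 to 0.56, -2.01 to -1.15 (*Tnr* to *Tnc*) and 1.08 to 1.38 (*Pak3* to *Pak7*). The ratio of *Mapk8ip2* to *Mapk8ip1* in Shh-MBs against control eyes ran from -0.28 to 0.018.

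Correlations of same-numbered deviations ran from -0.15 to 0.19. With so few samples per group they cannot decide whether the replicate numbers pair the samples. *RBS* lesions 2 and 3 correlated most with the control eye of their own number (0.16 and 0.19), and *RBS* lesions 1 and 4 did not. With a replicate block 301, 407 and 230 genes passed in place of 394, 468 and 316, and 9, 7 and 5 members in place of 9, 8 and 7.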
